A study of Mus musculus with 4 samples.

Results

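The genes described here carry the transforming growth factor beta (TGF-beta) and bone morphogenetic protein (BMP) signals: 7 ligands, 5 proteins of latency and activation, 2 secreted antagonists, 7 receptors, 5 SMADs, 7 inhibitors inside the cell and 4 ID genes, 37 in all. They were taken by gene symbol from the array annotation, which names 83 probe sets for them alone, between 1 and 6 for each gene, among 45101 probe sets. Past a filter on low values 36 of the 37 were compared, among 11715 genes in all. The gene left out, the transcriptional repressor Tgif1, read 18.5 and 23.8 intensity units in Ath29 aortas on Western diet and chow, against 18.7 and 34.0 in B6 aortas.

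RNA of the aorta was hybridised to 4 mouse Affymetrix arrays, 1 for each group, with no word in the labels on whether mice were pooled. Ath29 mice on Western diet and Ath29 mice on chow are congenic, with a donor segment on the C57BL/6 background, carry the title Ch9 and are labelled as resistant to atherosclerosis; their Apoe genotype is not given. B6 mice on Western diet and B6 mice on chow are C57BL/6 animals of apoE-/- genotype, labelled as having atherosclerosis. All mice were weaned to chow at 3 weeks of age and either stayed on it or changed to Western diet, which is rich in fat and cholesterol, at 4 weeks, for 2 weeks.

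TGF-beta is secreted in an inactive complex that latent TGF-beta binding proteins (LTBPs) anchor in the extracellular matrix, and it acts only once released. Ligands of both branches bring together type I and type II receptors, which phosphorylate SMAD2 and SMAD3 in the TGF-beta branch and SMAD1 and SMAD5 in the BMP branch. With SMAD4 these enter the nucleus, where they also switch on their own brakes, SMAD6 and SMAD7, and, in the BMP branch, the ID genes. In the arterial wall the pathway is known for keeping smooth muscle contractile and for matrix synthesis.

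SMAD proteins bind DNA at short sequences, so the start sites of 4 known SMAD targets among these genes are shown, with 250 bases before and 50 after the start, from RefSeq (build GRCm38.p6). Smad6 lies at chr9:64022010-64022309, minus strand, Id2 at chr12:25096043-25096342, minus strand, Id3 at chr4:136143572-136143871, plus strand and Id4 at chr13:48260866-48261165, plus strand. Capitals mark matches, on either strand, to the SMAD palindrome GTCTAGAC, to GGCGCC, a GC-rich element of BMP target genes, and to the short SMAD box CAGAC; no match overlaps another.
Smad6: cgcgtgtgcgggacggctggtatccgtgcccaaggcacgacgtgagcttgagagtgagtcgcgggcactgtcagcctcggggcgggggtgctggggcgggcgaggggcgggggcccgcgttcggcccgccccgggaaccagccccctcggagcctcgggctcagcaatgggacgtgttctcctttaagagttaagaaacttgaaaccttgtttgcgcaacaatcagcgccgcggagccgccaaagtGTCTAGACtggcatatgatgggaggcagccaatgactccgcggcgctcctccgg
Id2: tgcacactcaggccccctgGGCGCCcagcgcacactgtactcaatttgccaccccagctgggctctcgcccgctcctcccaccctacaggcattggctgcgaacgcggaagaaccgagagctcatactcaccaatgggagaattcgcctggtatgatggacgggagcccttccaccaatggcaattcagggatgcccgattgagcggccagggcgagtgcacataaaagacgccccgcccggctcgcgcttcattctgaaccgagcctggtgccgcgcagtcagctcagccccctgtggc
Id3: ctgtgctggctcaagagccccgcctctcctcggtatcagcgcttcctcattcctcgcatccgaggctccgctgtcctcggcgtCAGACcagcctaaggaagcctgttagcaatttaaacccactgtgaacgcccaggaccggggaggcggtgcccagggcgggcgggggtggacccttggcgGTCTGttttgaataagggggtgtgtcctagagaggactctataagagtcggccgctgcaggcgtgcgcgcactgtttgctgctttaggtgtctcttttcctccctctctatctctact
Id4: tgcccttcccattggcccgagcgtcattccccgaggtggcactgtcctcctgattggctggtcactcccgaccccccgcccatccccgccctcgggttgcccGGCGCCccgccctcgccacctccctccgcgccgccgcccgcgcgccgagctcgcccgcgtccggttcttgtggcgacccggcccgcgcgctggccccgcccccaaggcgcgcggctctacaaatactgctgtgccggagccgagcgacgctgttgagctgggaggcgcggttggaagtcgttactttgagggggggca
GTCTAGAC occurs in 0.213% of 32851 such windows and, among the 26 genes of the list with a window, in Smad6 alone, where it overlaps the start. GGCGCC is in 11.9% of all windows and in 12 of the 36 windows of the 26 genes. These 12 belong to 10 genes, Id2 and Id4 among them. CAGAC is in 49.6% of all windows and in 16 of the same 36, which belong to 13 genes. A match is a match of letters and says nothing here about binding.

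**Figure D1:**
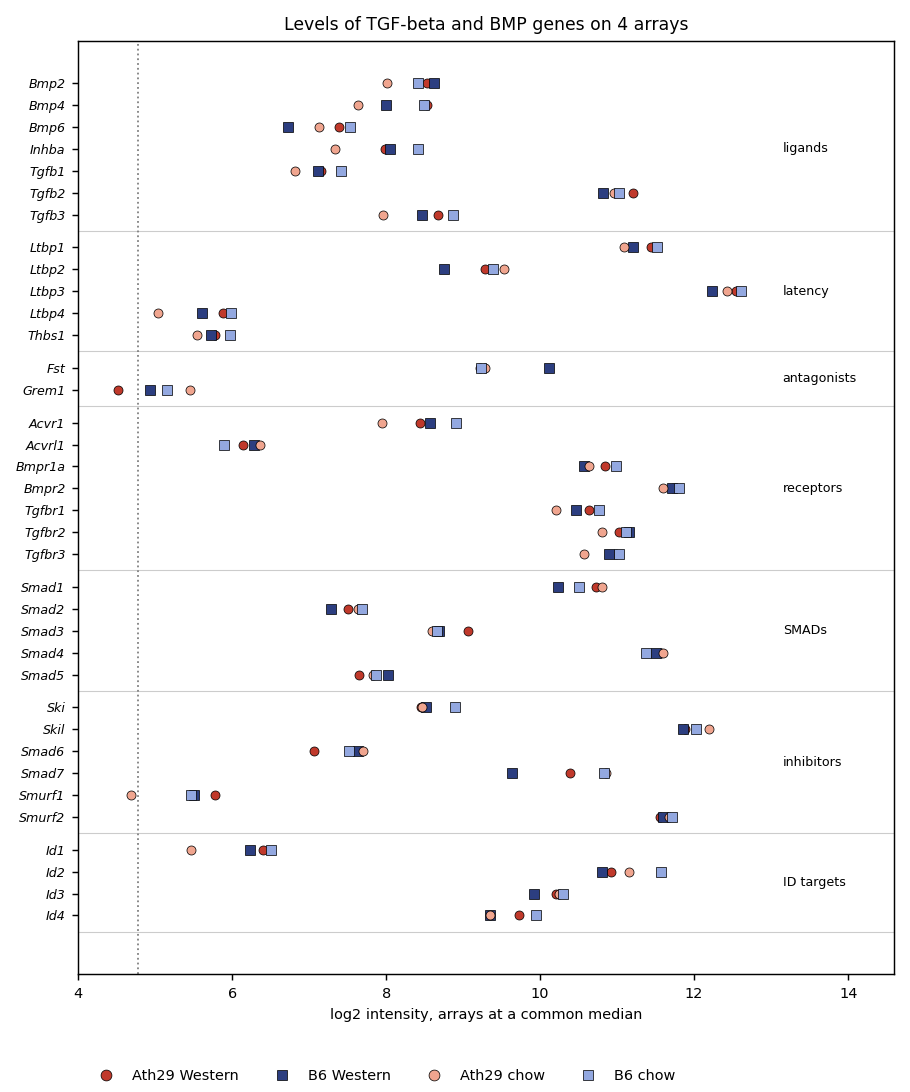
Level of each of the 36 genes (log2 intensity, x axis) on the 4 arrays, circles for Ath29 and squares for B6 mice, dark for Western diet and light for chow. The dotted line marks the expression filter at 4.78; the light circle of Ath29 chow is the lowest of the 4 points for 17 of the 36 genes, or 47.2% against 31.8% of all genes, and the light square of B6 chow the highest for 20, or 55.6% against 34.9%.

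The tissue label was checked against marker genes, which differed between the arrays. The extract protocol names liver and the source label aorta. All 8 contractile smooth muscle markers passed the filter, with Acta2 between 10395 and 11269 units, while 3 of the 7 hepatocyte markers with a probe set did. The summed intensity of the brown fat markers, all 8 past the filter, was 10590 and 13777 in Ath29 aortas on Western diet and chow, against 17996 and 8435 in B6 aortas. That of the 7 of 8 heart muscle markers past the filter was 499 and 658 in Ath29 aortas, against 10595 and 788 in B6 aortas. The 8 smooth muscle markers summed to 23241 and 20698 in Ath29 aortas on Western diet and chow, against 23043 and 25863 in B6 aortas. Fat signal was thus lowest, and smooth muscle signal highest, on the B6 chow array. For actin, the 3' probe set over the middle one, a sign of RNA integrity, gave 7.62 and 10.2 in Ath29 aortas on Western diet and chow, against 5.63 and 5.10 in B6 aortas. The same ratio of Gapdh ran the other way on the Ath29 chow array, with 10.6 and 8.87 in Ath29 aortas, against 9.54 and 9.23 in B6 aortas. The 3' over 5' ratio likewise put the Ath29 chow array highest for actin, at 31.5, and lowest for Gapdh, at 22.8. In bulk tissue, fewer cells of a type and less RNA per cell cannot be told apart.

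Each group is 1 array, so no difference could be checked against replicates or given a p-value. The scatter within an array can be read from genes with a second probe set. Over 4659 such genes, the strain difference of the 2 brightest probe sets was a median of 0.25 log2 units apart on Western diet and 0.31 on chow, and the diet difference 0.23 apart in Ath29 and 0.25 in B6 mice. Both signs were the same for 59.8% to 65.2% of genes. Probe sets bind with different strength, so intensities are compared between arrays and not between genes.

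The comparison of strains on chow asks how Ath29 and B6 mice differ without Western diet. The Apoe genotype of the Ath29 mice is not given. In every strain comparison here the donor segment and Apoe genotype therefore cannot be told apart. Here 27 of the 36 genes were lower in Ath29 than in B6 mice, 75% against 58.9% of all genes compared. Their median log2 difference was -0.32, against -0.08 over all genes. The ligands stood lowest as a group, with all 7 below 0 and a median of -0.61, followed by the 4 ID genes, all below 0, with -0.51. At least 2-fold lower were 2 genes, or 5.56% against 1.94% of all genes, and 0 were at least 2-fold higher, against 2.17%. At 1.5-fold 9 were lower, Inhba, Id1, Acvr1, Ltbp4, Tgfb3, Bmp4, Smurf1, Tgfb1 and Id4, or 25% against 9.62%, and 0 higher, against 7.28%. Of 19 genes of the list with a second probe set past the filter, 10 had the same sign on the 2 brightest, against 59.9% of all such genes. The median gap between these probe sets was 0.51, against 0.31 over all such genes. On the Ath29 chow array the actin ratios above were the highest, the Gapdh ratios the lowest and the smooth muscle sum the lowest; the part of RNA quality in these counts was not tested.

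Inhba, which encodes the subunit of activin A, was the ligand with the largest gap. It read 254 and 162 units in Ath29 aortas on Western diet and chow, against 265 and 339 in B6 aortas. Both B6 values exceed both Ath29 values, but the gap was -1.06 on chow and -0.06 on Western diet. Tgfb3 read 406 and 249 units in Ath29 aortas, against 355 and 469 in B6 aortas, a difference of -0.91 on chow. For Bmp4, a BMP of the vessel wall, the values were 370.2 and 200.0 units in Ath29 mice and 255 and 358 in B6 mice, or -0.84 on chow. In each of these 3 genes the Ath29 chow array was the lowest of the 4.

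Tgfb1, the TGF-beta isoform most studied in atherosclerosis, read 142 and 113 units in Ath29 aortas on Western diet and chow, against 139 and 172 in B6 aortas, and differed by -0.61 on chow. A dimmer Tgfb1 probe set, at 22.7 to 29.8 units and so close to background, gave -0.04. Tgfb2 read 2348 and 1985 units in Ath29 aortas, against 1790.2 and 2096 in B6 aortas. Its chow difference of -0.08 was small, and its 3 other probe sets gave -0.03, -0.28 and -0.46. Bmp2 and Bmp6 were each at -0.40 on chow. Bmp6, a BMP made by endothelium and liver, read 167 and 140.3 units in Ath29 aortas, against 106 and 185 in B6 aortas, so its highest and lowest values were both from B6 mice.

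Among the genes of latency and activation, Ltbp4 read 58.9 and 33.0 units in Ath29 aortas on Western diet and chow, against 49.0 and 63.3 in B6 aortas. It differed by -0.94 on chow, with the Ath29 chow value near the filter of 27.5 units. The highest values of the group belonged to the probe set of Ltbp3, at 5958 and 5520 units in Ath29 aortas, against 4811 and 6262 in B6 aortas, a chow difference of -0.18. Ltbp1 was at -0.43, Ltbp2 at 0.15 and Thbs1, whose product thrombospondin-1 releases TGF-beta from its latent complex, at -0.43. A dimmer Thbs1 probe set gave 0.13. Thus 4 of these 5 genes were below 0 on the probe sets used.

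Among receptors, 6 of 7 lay below 0 on chow (median -0.34). Acvr1, a type I receptor of BMPs and activins, read 347 and 246 units in Ath29 aortas on Western diet and chow, against 379 and 482 in B6 aortas, or -0.97 on chow. Both B6 arrays lay above both Ath29 arrays. A dimmer probe set of the gene, at 29.2 and 31.8 units in Ath29 aortas against 48.0 and 68.4 in B6 aortas, gave -0.72 on Western diet and -1.11 on chow. The type I receptor Tgfbr1 was at -0.57, the co-receptor Tgfbr3 at -0.47 and Bmpr1a at -0.34. Other Bmpr1a probe sets past the filter gave -0.55, -0.08, -0.34 and 0.30. Bmpr2, the type II receptor for BMPs, had 3392 and 3074 units in Ath29 mice and 3350 and 3565 in B6 mice (-0.21 on chow). Its 2 other, dimmer probe sets gave 0.34 and 0.57 on chow, and the first of these -0.50 on Western diet. Above 0 on the probe set used was Acvrl1, the endothelial receptor ALK1, with 70.5 and 82.4 units in Ath29 mice and 78.2 and 59.1 in B6 mice, or 0.48; its other probe set gave -0.18.

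On the probe sets used, the SMADs and the inhibitors inside the cell lay nearer to 0 than the ligands, a difference that was not tested. Differences on chow ran from -0.08 to 0.28 over the 5 SMADs, with a median of -0.04, and from -0.77 to 0.18 over the 6 inhibitors measured, with a median of -0.01. Smad4, the partner of all receptor SMADs, read 3035 and 3096 units in Ath29 aortas on Western diet and chow, against 2917 and 2660.1 in B6 aortas, or 0.22 on chow, but its 2 other probe sets gave -0.18 and -0.68. Below 0 on chow were also other probe sets of Ski (-0.84), Smad7 (-0.54) and Smurf2 (-0.38), which read -0.42, 0.03 and -0.04 on the brightest. Smad2 read 182 and 199 units in Ath29 aortas, against 156 and 206 in B6 aortas; its second probe set, at 38.0 units in Ath29 chow against 79.0 in B6 chow, gave -1.06, so the probe sets of Smad2 disagree. Smad5, a SMAD of the BMP branch, read 201 and 227 units in Ath29 aortas, against 259 and 234 in B6 aortas (-0.04 on chow); its second probe set, at 31.3 to 79.2 units, gave 1.34. Smurf1, a ubiquitin ligase that marks receptors and SMADs for breakdown, read 54.9 and 25.8 units in Ath29 aortas, against 45.2 and 44.0 in B6 aortas. Its Ath29 chow value lies below the filter, so its -0.77 is not exact.

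Among the ID genes, which encode inhibitors of helix-loop-helix transcription factors, Id1 read 84.6 and 44.3 units in Ath29 aortas on Western diet and chow, against 74.8 and 91.1 in B6 aortas, or -1.04 on chow. Only the Ath29 chow array stood low. Id4, whose start carries GGCGCC above, read 843 and 651 units in Ath29 aortas, against 653 and 988 in B6 aortas, or -0.60. Its other probe sets gave 0.03 and -0.73 on chow, and the one at -0.73 was also below 0 on Western diet, at -0.60. Id2 was at -0.41 with its second probe set at 0.39, and Id3 at -0.05.

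On Western diet the same strain comparison gave another picture. Here 25 of the 36 genes were higher in Ath29 than in B6 mice, 69.4% against 50.7% of all genes, with a median of 0.15 against 0.00. No gene of the list was 2-fold different, where 0.845% of all genes were higher and 2.03% lower. At 1.5-fold 2 were higher, Smad7 at 0.75 (0.00 on its second probe set) and Bmp6 at 0.66, or 5.56% against 5.63% of all genes, and 1 lower, against 7.89%. That was Fst, which encodes follistatin, the secreted antagonist of activin. Ltbp2, a matrix protein of the LTBP family, read 627 and 741 units in Ath29 aortas on Western diet and chow, against 431 and 670.1 in B6 aortas, and was at 0.54. All 5 latency genes and all 4 ID genes were above 0, with medians of 0.27 and 0.23.

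Fst read 596 and 622 units in Ath29 aortas on Western diet and chow, against 1114 and 599 in B6 aortas. Its second probe set had 74.5 and 63.4 units in Ath29 mice and 124.0 and 52.1 in B6 mice. On both probe sets the B6 Western array stood alone above the other 3, with strain differences of -0.90 and -0.74 on that diet. The B6 Western array was also that of the highest heart muscle and brown fat signal, and the part of either in the Fst value was not tested. Grem1, an antagonist of BMPs, read 23.0 and 43.7 units in Ath29 aortas, against 30.5 and 35.7 in B6 aortas, too near the filter to be read further.

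**Figure D2:**
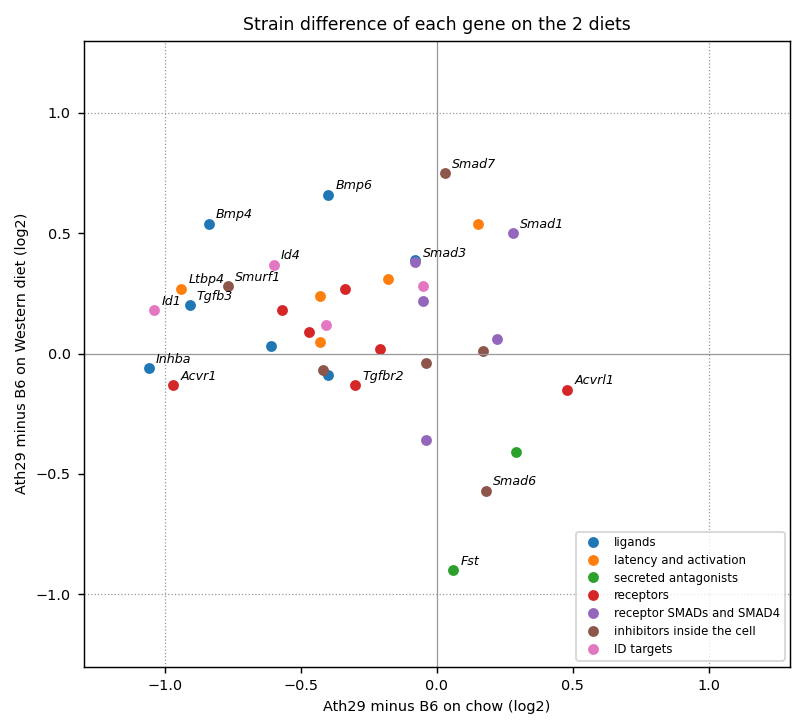
Log2 difference between Ath29 and B6 mice for each of the 36 genes on chow (x axis) and on Western diet (y axis), coloured by role, with dotted lines at 2-fold. Of the 36 points 20 lie in the upper left field, below 0 on chow and above 0 on Western diet; Inhba and Id1 lie past 2-fold on chow.

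On the probe sets used, no gene of the list differed by at least 1.5-fold in the same direction between strains on both diets. Of all genes, 0.435% were higher and 0.828% lower by that rule. Dimmer probe sets of Acvr1 (-0.72 on Western diet and -1.11 on chow) and Id4 (-0.60 and -0.73) did pass it. In all 20 of the 36 genes, or 55.6% against 32.2% of all genes, were below 0 on chow and above 0 on Western diet. On both diets 5 were higher, Ltbp2, Skil, Smad1, Smad4 and Smad7, or 13.9% against 18.5% of all genes, and 7 lower, Acvr1, Bmp2, Inhba, Ski, Smad5, Smurf2 and Tgfbr2, or 19.4% against 26.7%. Smad1, a SMAD of the BMP branch, read 1694 and 1779 units in Ath29 aortas on Western diet and chow, against 1200.1 and 1462 in B6 aortas, or 0.50 and 0.28. Both Ath29 values lay above both B6 values on that probe set, but its 2 other probe sets gave 0.32 and -0.36 on Western diet and -0.22 and 0.29 on chow.

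The comparison of diets asks what 2 weeks of Western diet go with in each strain. In B6 mice 27 of the 36 genes were lower on Western diet than on chow, 75% against 56.6% of all genes, with a median of -0.29 against -0.06. At least 2-fold lower was 1 gene, Smad7, or 2.78% against 1.17% of all genes, and 0 were at least 2-fold higher, against 4.11%. At 1.5-fold 5 were lower, Smad7, Bmp6 (-0.81), Id2 (-0.77), Ltbp2 (-0.64) and Id4 (-0.60), or 13.9% against 7.13%. Only Fst was higher at that threshold, by 0.90 and by more on its second probe set, where 9.95% of all genes were.

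In Ath29 mice 21 of the 36 genes were higher on Western diet, 58.3% against 56.2% of all genes, with a median of 0.21 against 0.04. Of the 19 genes with a second probe set, 8 had the same sign on the 2 brightest, against 59.8% of all such genes. All 7 ligands were above 0, with a median of 0.52, from Tgfb2 at 0.24 to Bmp4 at 0.89. At 1.5-fold 6 genes were higher, Smurf1 (1.09, with a chow value below the filter), Id1 (0.93), Bmp4 (0.89), Ltbp4 (0.84), Tgfb3 (0.71) and Inhba (0.65), or 16.7% against 6.03% of all genes. Smurf1 alone passed 2-fold, against 1.32% of all genes. This difference and the strain difference on chow share the Ath29 chow array. Lower by at least 1.5-fold were Grem1 (-0.93, with values near the filter) and Smad6 (-0.64), or 5.56% against 4.35%, and 0 were 2-fold lower, against 0.854%.

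Smad7, the inhibitory SMAD that TGF-beta signals induce, was lower on Western diet in both strains on both of its probe sets. The brighter read 1339 and 1854 units in Ath29 aortas on Western diet and chow, against 796 and 1817 in B6 aortas. The second read 199 and 342 units in Ath29 aortas, against 198 and 497 in B6 aortas. Both Western arrays lay below both chow arrays on each probe set. The diet differences were -0.47 and -0.78 in Ath29 mice and -1.19 and -1.32 in B6 mice, and the 2 strains share no array here. No other gene of the list reached 1.5-fold in the same direction in both strains on a single probe set past the filter, and on the brighter probe set neither did Smad7. Macrophage markers went the other way, with a sum over 7 of 7765 and 4705 in Ath29 aortas on Western diet and chow and of 7788 and 3794 in B6 aortas; their part in the Smad7 difference was not tested. Over all genes 0.367% were lower by that rule and 0.837% higher.

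Of the other brakes on the pathway, Smurf1 was at 1.09 and Smad6 at -0.64 between diets in Ath29 mice, against -0.47 for the brighter Smad7 probe set, and at 0.04 and 0.11 in B6 mice. Skil, a corepressor that SMAD signals also induce, read 3760.1 and 4686 units in Ath29 aortas on Western diet and chow, against 3723 and 4152 in B6 aortas, or -0.32 and -0.16 between diets. Ski, its relative, was at -0.02 in Ath29 and -0.37 in B6 mice, with its second probe set at 0.47 and -0.70. The ubiquitin ligase Smurf2 was at -0.11 in each, with other probe sets at 0.15 and -0.52 in Ath29 and -0.24 and 0.17 in B6 mice. Smad6, the inhibitory SMAD of the BMP branch, read 134 and 208 units in Ath29 aortas, against 198 and 184 in B6 aortas, so the Ath29 Western array alone stood low. Id2 read 1944 and 2293 units in Ath29 aortas, against 1784 and 3047 in B6 aortas, or -0.24 and -0.77 between diets; its second probe set gave -0.27 and -0.53. Id3 was at -0.05 and -0.38. On the brighter Id2 probe set both Western arrays lay below both chow arrays.

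**Figure D3:**
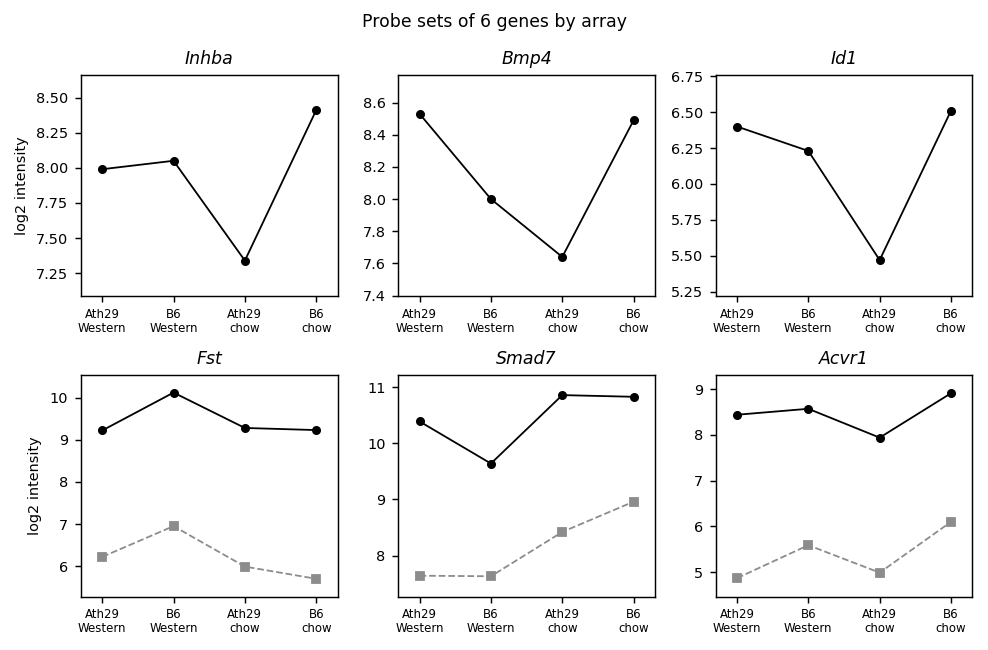
Log2 intensity of every probe set past the filter for 6 genes on the 4 arrays; solid black lines are the probe set used, dashed grey lines the second. Inhba, Bmp4 and Id1 are lowest on the Ath29 chow array, both Fst probe sets are highest on B6 Western, and both Smad7 probe sets are lower on the Western than on the chow arrays.

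The strain by diet double difference, the strain difference on Western diet minus that on chow, sums up this pattern from all 4 arrays. It was above 0 for 29 of the 36 genes, 80.6% against 58.8% of all genes, with a median of 0.48 against 0.11. At least 2-fold were 7 genes, or 19.4% against 4.95% of all genes: Bmp4 (1.38), Id1 (1.22), Ltbp4 (1.20), Tgfb3 (1.11), Bmp6 (1.06), Smurf1 (1.05) and Inhba (1.0). In the other direction 0 passed 2-fold, against 6.77%, with Fst (-0.96), Smad6 (-0.75), Grem1 (-0.70) and Acvrl1 (-0.63) the lowest. By role, medians were 1.0 for ligands, 0.75 for ID genes, 0.56 for receptors, 0.49 for latency genes, 0.21 for SMADs, 0.18 for inhibitors inside the cell and -0.83 for the 2 secreted antagonists. The last of these rests on Fst and on Grem1, whose values lie near the filter. Of 19 genes with a second probe set past the filter, 16 had the same sign of the double difference on the 2 brightest. Over all 4659 such genes the share was 64.3%. The count of 16 was more than for the strain difference on chow or the diet difference in Ath29 mice given above. It was near the 15 for the strain difference on Western diet and the 17 for the diet difference in B6 mice. With 29 of the 36 genes above 0, many signs match anyway. Both probe sets of a gene come from the same 4 arrays, so matching signs do not check the arrays.

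Smooth muscle and fibroblast markers moved in the direction of this pattern, and fat markers against it. The median double difference was 0.44 for the 8 smooth muscle markers and 0.41 for the 7 fibroblast markers, and -2.27 for the 8 brown fat markers and -0.59 for the 5 white fat markers past the filter. It was 0.16 for 7 endothelial and -0.25 for 7 macrophage markers. When levels were taken relative to the median shift of the smooth muscle markers, the median of the 36 genes was -0.05 between strains on chow, 0.09 on Western diet, 0.10 between diets in Ath29 and -0.07 in B6 mice. Relative to the fibroblast markers these values were 0.00, 0.21, 0.02 and -0.22. The median of all genes moved as well, to 0.20 and 0.24 between strains on chow on the 2 scales, so that of the 36 genes lay below it. The median double difference was then 0.14 and 0.21, against -0.23 and -0.15 over all genes. On the 2 scales 4 and 3 genes reached 2-fold in either direction, and the share over all genes was not counted there. Of the genes at least 2-fold without this scaling, Bmp4 alone stayed so on both scales. The others counted were below 0, Fst among them at -1.3 and -1.23. Between strains on chow Inhba was then at -0.79 and -0.74 and Id1 at -0.76 and -0.72, under 2-fold on both scales. Smad7 between diets in B6 mice was at -0.97 and -1.12.

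**Figure D4:**
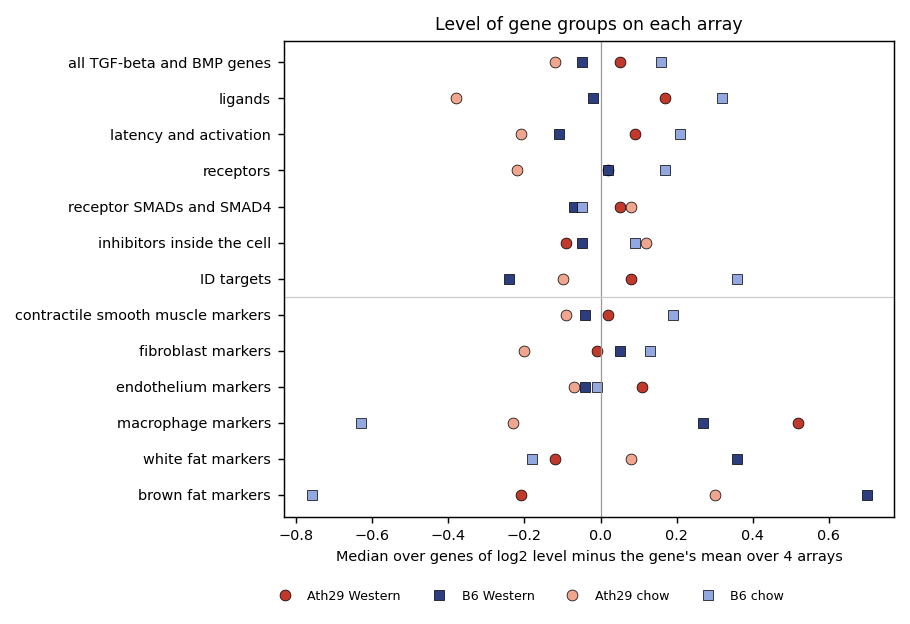
Median over the genes of each group of the log2 level on an array minus the gene's mean over the 4 arrays, for TGF-beta and BMP genes by role (upper part) and markers (lower part). Ligands lie at 0.17 on Ath29 Western, -0.02 on B6 Western, -0.38 on Ath29 chow and 0.32 on B6 chow, and brown fat markers at -0.21, 0.70, 0.30 and -0.76 on the same arrays.

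The array title of the Ath29 mice names chromosome 9, and 3 of the genes lie on it, Smad3, Smad6 and Tgfbr2. In gene order Smad3 and Smad6 are next to each other, at places 295 and 296 of 648 measured genes, and Tgfbr2 is at place 589. Smad3 read 533 and 385 units in Ath29 aortas on Western diet and chow, against 409 and 406 in B6 aortas, or 0.38 and -0.08. Smad6 differed by -0.57 on Western diet and 0.18 on chow. Tgfbr2, the type II receptor for TGF-beta, read 2079 and 1784 units in Ath29 aortas, against 2270 and 2204 in B6 aortas, or -0.13 and -0.30. None of the 3 reached 1.5-fold on either diet, and the neighbours Smad3 and Smad6 had opposite signs on each.

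Other genes of the pathway and its targets, 92 on lists drawn up from general knowledge, gave 68 past the filter. Among them Acta2, Tagln and Cnn1 are also smooth muscle markers above, and Col1a1 and Dcn fibroblast markers. These lists are therefore not separate from those markers. Between strains on chow 50 of the 68 were below 0, 73.5% against 58.9% of all genes, with a median of -0.13 against -0.08. On Western diet 47 were above 0, 69.1% against 50.7%, with a median of 0.10 against 0.00. Between diets 42 were above 0 in Ath29 mice, 61.8% against 56.2%, and 49 below 0 in B6 mice, 72.1% against 56.6%. At 2-fold between strains on chow, 3 were lower, or 4.41% against 1.94% of all genes, and 1 higher, or 1.47% against 2.17%. On Western diet 1 was lower and 1 higher, each 1.47%, against 2.03% and 0.845%. Between diets 2 were 2-fold higher in Ath29 mice, or 2.94% against 1.32%. In B6 mice 3 were lower and 1 higher, or 4.41% and 1.47% against 1.17% and 4.11%. Of 20 genes known as TGF-beta targets the median was -0.17 between strains on chow and 0.10 on Western diet, and of 6 BMP targets -0.13 and 0.23.

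Sostdc1, a secreted BMP and Wnt antagonist, alone among the 68 differed by at least 1.5-fold in the same direction between strains on both diets. It read 48.9 and 86.9 units in Ath29 aortas on Western diet and chow, against 89.2 and 134 in B6 aortas, or -0.87 and -0.62. The ligand gene Gdf10 read 429 and 169 units in Ath29 aortas, against 280.2 and 396 in B6 aortas, and Timp1, the matrix protease inhibitor, 741 and 249 in Ath29 aortas, against 624 and 541 in B6 aortas. Both were lowest on the Ath29 chow array, as Inhba, Bmp4 and Id1 were. Acvr1c, which encodes the activin receptor ALK7 of adipocytes, went the other way, with 98.7 and 116 units in Ath29 mice and 232 and 56.1 in B6 mice. Its order over the arrays was that of the brown fat markers. Sostdc1 was named by rule, and Gdf10, Timp1 and Acvr1c after their values were seen.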

How the data were processed

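Aortic RNA of 4 groups was measured on 1 array each. The deposited table holds 1 intensity per probe set and array, taken as linear from its range of 0.57 to 13421; how the authors corrected background and scaled it is not given in the sources used here. Per the labels' protocols, biotin cRNA was made from 8 ug of total RNA. Array medians were 28.6 and 28.8 in Ath29 aortas on Western diet and chow, against 28.8 and 27.9 in B6 aortas. With 1 array per group, precision is limited by their number.

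Probe sets were named from the platform annotation (34958 with 1 symbol, 932 with several, 9211 with none or control), and 34754 were found in a gene table of assembly GRCm38.p6. Values were taken to log2, arrays shifted to a common median and values below the 25th percentile (9.60) raised to it. Probe sets with a mean log2 above the median (4.78, or 27.5 units) were kept, and a gene was read from its brightest. Genes were counted at 2-fold and 1.5-fold. Python 3.11.15 with numpy 2.4.6 and pandas 2.3.3 was used, and the counting was tested on simulated data. Alternatives were other scalings, filters, floors, probe set choices and thresholds. The genes and lists were chosen with earlier results of these data known. Genes were to be named where 2-fold different in any difference, 1.5-fold in both of a kind, or brightest or dimmest of their role; Acvr1, Bmp2, Bmp4, Bmp6, Bmpr1a, Id3, Id4, Ltbp1, Ltbp2, Ski, Smad1, Smad3, Smad5, Smad6, Smurf2, Tgfb3, Tgfbr1, Tgfbr2, Tgfbr3 and Thbs1 were named beyond that, after their values were seen. The double difference and the scalings to markers were added after the data were seen.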

Additional observations from a re-analysis of the deposited data

Results flagged for a closer look

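The median strain difference of the 36 genes had opposite signs on the diets, 0.15 on Western diet and -0.32 on chow. Equally, their median diet difference was 0.21 in Ath29 and -0.29 in B6 mice. Both statements come from the same 4 arrays, and with 1 array per group the difference was not tested.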

How the results depend on the processing

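No paired analysis was possible because each group has 1 array. Without a replicate no result has a test, so no stability across mice can be read from these values. The median strain difference on chow was -0.22 with quantile normalization, -0.21 with the mean of all probe sets, -0.19 over single probe sets, -0.05 relative to smooth muscle and 0.00 relative to fibroblast markers; scaling to markers moves every gene of an array alike, and took the median of all genes to 0.20 and 0.24. The median diet difference in Ath29 mice was 0.08 with the mean of all probe sets, and 0.10 and 0.02 relative to those markers; in B6 mice it was -0.07 relative to smooth muscle. The median double difference was 0.14 and 0.21 relative to the 2 marker lists. The count at 2-fold in either direction was 4 and 3 there, with Bmp4 alone above 0. It was 4 under the stricter filter and 13 of 69 over single probe sets. At 2-fold between strains on chow, 1 gene was counted under a common 75th percentile, no shift, quantile normalization, the stricter filter, the mean of all probe sets or with multi-transcript probe sets left out, 5 probe sets singly, and 0 relative to either marker list. Between diets, 0 genes in Ath29 mice passed 2-fold with the stricter filter or the mean of all probe sets, and in B6 mice 2 passed with that mean and 3 probe sets singly. The share over all genes was not counted under any other scaling, filter or probe set choice. Counts under those settings therefore have no background beside them. At 1.5-fold the counts were 3 and 9 between strains on Western diet and chow, and 8 and 6 between diets in Ath29 and B6 mice. At 3-fold all 4 counts were 0. The number sharing a direction between diets was 2 with the mean of all probe sets (Smad3 and Smad7), and 1 with multi-transcript probe sets left out (Smad7), over single probe sets, relative to fibroblast markers, or at a lower threshold; between strains 2 single probe sets did, of Acvr1 and Id4. The dimmer Smad3 probe sets lie below the filter, so that mean is not exact. Single genes gave 1925 values under these alternatives, filters included. A change of filter leaves the value of a kept gene as it was, so those values could not move. Of the 1925, 22 moved by more than 0.39, the median gap between probe sets for the double difference. Without a shift, under a common 75th percentile or relative to markers, every gene of a difference moves alike and by less than 0.39. Those values could not pass the gap either, so the 22 are not a measure of stability. In all, 0 values that had passed 2-fold changed sign. The cause of these shifts was not tested.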
